A study of Mus musculus with 6 samples.

Results

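The genes described here are 7 matrix metalloproteinases (Mmp2, Mmp8, Mmp9, Mmp12, Mmp13, Mmp14 and Mmp19) and 3 tissue inhibitors of metalloproteinases (Timp1, Timp2 and Timp3), 10 of the 17191 genes in the deposited tables. They were taken by gene symbol, and all 10 were among the 12721 genes with enough counts to be tested. The RNA came from cells of CT26 tumours, which are formed under the skin by a murine colorectal cancer line. The hosts were BALB/c females 6 to 8 weeks old. The 3 TP-18 libraries were from mice dosed orally with TP-18 at 50 mg/kg once a day for 3 weeks, and the 3 vehicle libraries were from mice dosed with vehicle over the same time. Both groups carried the same tumour, and dosing began at a tumour volume of 100 to 200 mm3. TP-18 is known here only by its code name. The sources disagree on the cells: the series text describes macrophages sorted as CD11b+F4/80+CD206+, the treatment protocol describes magnetic selection of CD11b+ cells, and the sample characteristics give the CT26 line. Nothing states that each library came from its own mouse, and p-values therefore describe the spread among these 6 libraries, part or all of which may be technical.

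Matrix metalloproteinases are zinc endopeptidases that are made as inactive proenzymes and cut collagens, elastin, laminins and other matrix proteins once their propeptide is removed. TIMP proteins block them by binding the active site in a complex of equal parts. In tumours, macrophages, neutrophils and fibroblasts all make members of both families, and the balance between proteases and inhibitors is known to shape matrix turnover and the release of growth factors held in the matrix. Transcript levels alone do not give enzyme activity, since activation and inhibition act on the proteins.

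The libraries held 16371128 to 17597645 counts each. Itgam, Adgre1 and Mrc1, which encode CD11b, F4/80 and CD206, averaged 889.8, 191 and 776 CPM (counts scaled to a common library size with TMM factors) in TP-18 libraries and 1012, 192 and 977 CPM in vehicle libraries. None of these 3 sort markers passed the edgeR quasi-likelihood test (adjusted p = 0.685, 0.996 and 0.594). Markers of other cells were also read. The summed level of 10 fibroblast and pericyte markers was 1508 to 1880 CPM in TP-18 libraries and 748 to 1214 CPM in vehicle libraries, so these ranges did not overlap. All 10 of these markers had a mean of at least 1 CPM. The 8 endothelial markers summed to 106 to 185 CPM in TP-18 libraries and 34.7 to 186 CPM in vehicle libraries, with all 8 at or above 1 CPM. Of 10 neutrophil markers, 9 were in the tables and 6 of those (Retnlg, Cxcr2, Ngp, Camp, Ltf and Elane) averaged under 1 CPM. Their sum was 51.3 to 99.0 CPM in TP-18 libraries and 52.5 to 127 CPM in vehicle libraries. Ly6g, the remaining marker, had no row under that symbol among the deposited genes. The 10 macrophage markers summed to 6121 to 8650 CPM in TP-18 libraries and 6127 to 17731 CPM in vehicle libraries. Of 7 epithelial markers in the tables, Epcam, Krt19 and Cldn4 averaged under 1 CPM, and the 7 summed to 247 to 512 CPM in TP-18 libraries and 344 to 532 CPM in vehicle libraries. Mast cell markers summed to 10.7 to 33.97 CPM in TP-18 libraries and 3.31 to 5.78 CPM in vehicle libraries, with Fcer1a and Ms4a2 under 1 CPM among 7. Dendritic cell markers summed to 4.94 to 6.39 CPM in TP-18 libraries and 8.43 to 14.3 CPM in vehicle libraries, with 5 of 7 under 1 CPM. The ranges of the mast cell sum and of the dendritic cell sum did not overlap between the groups either, at low levels. The sums in TP-18 and vehicle libraries were 2.98 to 9.60 and 4.28 to 11.7 CPM for T, NK and B cell markers. For skin, muscle and adipose markers they were 7.15 to 43.6 and 33.1 to 58.5 CPM. In RNA from many cells, fewer cells of a type and less RNA per cell cannot be told apart.

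Mmp19 was 3.02-fold lower and Mmp2 2.10-fold higher in TP-18 libraries than in vehicle libraries, and these were the 2 members whose groups did not overlap in CPM. Mmp14, Timp1 and Timp2 were abundant in both groups, and the values of the 2 groups overlapped for each. Mmp8 and Timp3 differed more between libraries of a group than between the groups. With edgeR, 0 of the 10 members passed an adjusted p of 0.05, where 0.11% of all tested genes did (0.0236% as higher and 0.0865% as lower). At an unadjusted p under 0.05 there were 2 members, Mmp19 and Mmp2, against 16.3% of all tested genes (7.56% higher and 8.7% lower). Groups without overlap in CPM made up 20% of the members and 23.3% of all tested genes (11.6% higher and 11.7% lower), so the share among members is near the background. In the deposited FPKM values the groups did not overlap for 3 members, Mmp2 and Mmp12 higher and Mmp19 lower, against 28.3% of all tested genes (23.5% higher and 4.76% lower). DESeq2, run as an alternative, called Mmp19 lower and Mmp2 higher, and it called 4.03% of the genes it tested. Limma-voom and limma on log2(FPKM + 1) called 0 members. The median log2 fold change (TP-18 over vehicle) was 0.15 over the 10 members and 0.02 over all tested genes. Of the members, 6 had a positive fold change and 4 a negative one.

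**Figure D1:**
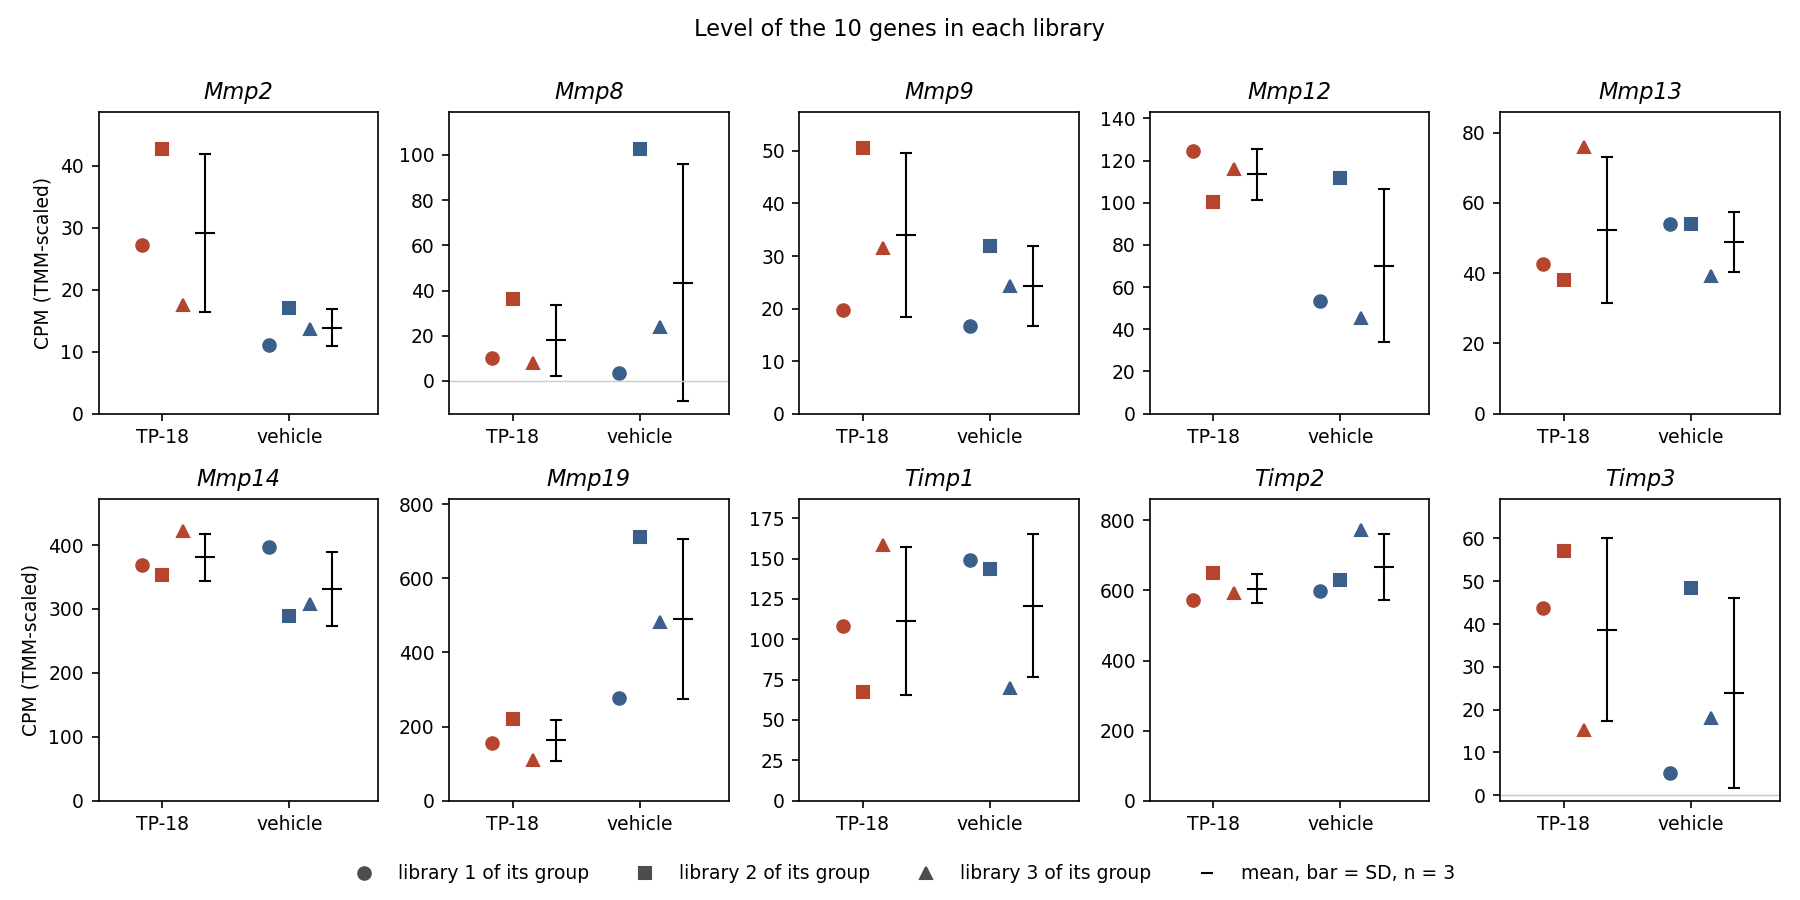
Level of each of the 10 genes in CPM on TMM-scaled library sizes (vertical axes, linear), with TP-18 libraries left of vehicle libraries. Symbols are single libraries, and the horizontal tick with its bar is the mean with its SD (n = 3). Mmp19 lies lower and Mmp2 higher in the TP-18 libraries without overlap, while Mmp8 ranges from 3.63 to 103 CPM within the vehicle group.

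Mmp19 encodes a secreted metalloproteinase that cuts basement membrane proteins. It had 155, 222 and 111 CPM in TP-18 libraries 1, 2 and 3, against 278, 711 and 482 CPM in vehicle libraries 1, 2 and 3. The highest TP-18 library lay below the lowest vehicle library, and within each group replicate 2 was the highest. The means were 163 ± 55.7 CPM in TP-18 libraries and 490 ± 216 CPM in vehicle libraries (SD, n = 3 each). The log2 fold change was -1.59 ± 0.37 (SE), with a 95% interval for this gene alone of -2.46 to -0.72. It ranked 248 by p among the tested genes and did not pass (edgeR adjusted p = 0.152). DESeq2 gave a log2 fold change of -1.61 with an adjusted p of 0.000498. Leaving out vehicle 2, the library with the highest level, gave -1.24 (edgeR adjusted p = 0.230). On GRCm38 the gene spans 128790910 to 128800824 on chromosome 10, on the forward strand. It shares 789 of its 3533 exonic bases with Tmem198b on the opposite strand, and whether counting used strand is not given in the sources used here, so reads from the shared stretch cannot be told apart. Tmem198b averaged 26.2 CPM over the 6 libraries, with a log2 fold change of -0.15 (edgeR adjusted p = 0.780).

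The gelatinases Mmp2 and Mmp9 cut denatured collagen and collagen IV of basement membranes. Mmp2 is known as a product of fibroblasts and is activated at the cell surface by the Mmp14 protein with the help of Timp2. It had 27.2, 42.7 and 17.5 CPM in TP-18 libraries 1, 2 and 3, against 11.003, 17.1 and 13.6 CPM in vehicle libraries 1, 2 and 3. The groups touched closely, since the lowest TP-18 library lay just above the highest vehicle library. TP-18 over vehicle gave a log2 fold change of 1.07 ± 0.33 (SE), with a 95% interval of 0.30 to 1.83 (edgeR adjusted p = 0.219). DESeq2 gave 1.05 with an adjusted p of 0.0483. Without TP-18 2, the highest library, the log2 fold change was 0.69 (edgeR adjusted p = 0.338). The summed level of the fibroblast and pericyte markers given above was also higher in every TP-18 library than in any vehicle library. Within the groups its order was not that of Mmp2. The sums were 1880, 1640 and 1508 CPM in TP-18 libraries 1, 2 and 3, against 1214, 900 and 748 CPM in vehicle libraries 1, 2 and 3. Of these 10 markers, 6 were higher in TP-18 libraries without overlap between the groups, against 11.6% of all tested genes. With edgeR 0 of them passed, and DESeq2 called 4 higher. The part of these markers in the Mmp2 values was not tested. The gene lies at 92827291 to 92853420 on chromosome 8.

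Mmp9 is made by macrophages and stored in the granules of neutrophils. It had 19.7, 50.6 and 31.6 CPM in TP-18 libraries 1, 2 and 3, against 16.6, 31.8 and 24.4 CPM in vehicle libraries 1, 2 and 3. The groups overlapped, with replicate 2 the highest and replicate 1 the lowest in both. The log2 fold change of 0.48 ± 0.36 (SE) had a 95% interval of -0.36 to 1.33 (edgeR adjusted p = 0.536), and it was 0.08 without TP-18 2. The difference was within the spread between libraries. Mmp9 lies at 164940780 to 164955850 on chromosome 2.

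The collagenases Mmp8 and Mmp13 cut the triple helix of fibrillar collagens. Mmp8, the collagenase of neutrophil granules, had 10.0, 36.1 and 8.03 CPM in TP-18 libraries 1, 2 and 3, against 3.63, 103 and 24.0 CPM in vehicle libraries 1, 2 and 3. Its lowest and its highest library were both vehicle libraries, 28.4-fold apart. The pooled SD of log2 CPM within groups was 1.88, larger than that of 99.6% of tested genes, where the median was 0.26. The log2 fold change of -1.27 ± 1.04 (SE) had a 95% interval of -3.67 to 1.14 (edgeR adjusted p = 0.571). Without vehicle 2 it was 0.36, so its direction rested on that library. The neutrophil marker S100a8 had 15.4, 59.6 and 11.7 CPM in TP-18 libraries and 7.01, 90.6 and 32.2 CPM in vehicle libraries, in the same order of replicates within each group as Mmp8. It is named here because its profile was the closest to Mmp8. Of the 5 tested neutrophil markers, S100a8 had a negative log2 fold change (-0.58) and 4 had a positive one, among them S100a9 (0.13), and none passed with edgeR (0 at an unadjusted p under 0.05, 0 with DESeq2). Their part in the Mmp8 values was not tested. Csf3r, another of them, did not follow the Mmp8 order, at 23.0, 15.2 and 41.3 CPM in TP-18 libraries and 40.7, 14.5 and 23.0 CPM in vehicle libraries.

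Mmp13, the main interstitial collagenase of mice, had 42.7, 38.2 and 76.0 CPM in TP-18 libraries 1, 2 and 3, against 53.9, 53.9 and 39.1 CPM in vehicle libraries 1, 2 and 3. TP-18 3 was the highest library, TP-18 2 the lowest, and TP-18 1 lay within the vehicle range. Its log2 fold change was 0.09 ± 0.28 (SE), with a 95% interval of -0.54 to 0.73 (edgeR adjusted p = 0.889). It was -0.28 without TP-18 3 and -0.06 without vehicle 3.

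Mmp12, the elastase of macrophages, had 124, 100.4 and 116 CPM in TP-18 libraries 1, 2 and 3, against 53.5, 112 and 45.5 CPM in vehicle libraries 1, 2 and 3. The TP-18 libraries lay close together, while vehicle 2 reached their level and the other vehicle libraries did not. Its log2 fold change was 0.69 ± 0.32 (SE), with a 95% interval of -0.06 to 1.44 (edgeR adjusted p = 0.335). It was 1.18 without vehicle 2, 0.51 without vehicle 1 and 0.44 without vehicle 3 (edgeR adjusted p = 0.110, 0.464 and 0.561). In the deposited FPKM values, which scale by library totals alone, TP-18 2 had 28.4 and vehicle 2 had 27.7, so that on this scale the groups did not overlap. Mmp12 shares 157 of its 7237 exonic bases with Mmp1b on the opposite strand. Mmp1b had 1 count over the 6 libraries.

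Mmp8, Mmp12 and Mmp13 belong to a cluster of 10 metalloproteinase genes that spans 427 kb of chromosome 9, from 7272514 to 7699585 on GRCm38. In order along the chromosome these are Mmp13, Mmp12, Mmp1b, Mmp3, Mmp1a, Mmp10, Mmp8, Mmp27, Mmp20 and Mmp7. Of these, 8 were in the tables and 6 had enough counts to be tested, and 0 of the 6 passed with edgeR. Mmp3, a stromelysin, averaged 5.87 ± 2.56 CPM in TP-18 libraries and 9.44 ± 7.43 CPM in vehicle libraries (SD, n = 3 each). Mmp10, another stromelysin, had means of 0.758 and 1.61 CPM in TP-18 and vehicle libraries, and Mmp27 had 1.03 and 2.55 CPM. Mmp1a and Mmp1b had at most 1 count in any library. In chromosome order the log2 fold changes of the tested genes were 0.09 for Mmp13, 0.69 for Mmp12, -0.68 for Mmp3, -1.08 for Mmp10, -1.27 for Mmp8 and -1.30 for Mmp27. None of these passed the test, and among the members Mmp13, Mmp12 and Mmp8, the signs of Mmp13 and Mmp8 turned with a single library left out. Fits with a library left out were read for members only, so the signs of Mmp3, Mmp10 and Mmp27 were not checked this way. Mmp3 had 6.68, 7.92 and 3.00 CPM in TP-18 libraries 1, 2 and 3, against 3.63, 17.8 and 6.88 CPM in vehicle libraries 1, 2 and 3.

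The promoters of Mmp13 and Mmp12 are shown because these adjacent genes both hold the AP-1 motif TGANTCA, the binding sequence of Fos and Jun dimers, close to a start site. The windows run from 250 bases before to 50 bases after the RefSeq start on GRCm38.p6, 5′ to 3′ on the forward strand, with the motif in capitals. Mmp13 is at chr9:7272264-7272563 and this start of Mmp12 at chr9:7347124-7347423.
Mmp13: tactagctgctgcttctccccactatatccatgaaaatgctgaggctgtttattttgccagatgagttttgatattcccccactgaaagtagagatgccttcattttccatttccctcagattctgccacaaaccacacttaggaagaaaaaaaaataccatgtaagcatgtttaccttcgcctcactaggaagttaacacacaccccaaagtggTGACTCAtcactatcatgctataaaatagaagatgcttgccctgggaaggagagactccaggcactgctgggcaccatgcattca
Mmp12: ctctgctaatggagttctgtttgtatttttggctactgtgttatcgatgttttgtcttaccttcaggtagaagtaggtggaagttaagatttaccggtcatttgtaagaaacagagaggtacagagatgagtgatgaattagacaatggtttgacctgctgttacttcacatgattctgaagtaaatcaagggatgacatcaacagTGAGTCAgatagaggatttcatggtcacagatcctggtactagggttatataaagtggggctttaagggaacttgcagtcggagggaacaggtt
The motif, which reads the same on both strands, lies 35 to 29 bases before the start in Mmp13 and 44 to 38 bases before it in Mmp12. Of the 10 members, 7 had a RefSeq window, 8 windows in all, since Mmp12 has a second start. The motif was in 2 of the 8 windows and in 7.81% of all 32851 windows in the table. Windows of Mmp2, Mmp9 and Mmp19 were not analysed here. A match describes the letters and does not show a used site, and gene counts do not tell which Mmp12 start was used.

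Mmp14 encodes the membrane-type metalloproteinase that sits on the cell surface, cuts collagen around the cell and activates pro-Mmp2. It had 368, 353 and 422 CPM in TP-18 libraries 1, 2 and 3, against 398, 289 and 308 CPM in vehicle libraries 1, 2 and 3. Vehicle 1 lay among the TP-18 libraries, so the groups overlapped. Its log2 fold change was 0.20 ± 0.17 (SE), with a 95% interval of -0.18 to 0.59 (edgeR adjusted p = 0.577). Its pooled SD of log2 CPM within groups was 0.20, under the median of 0.26 over all tested genes. Mmp14 lies at 54431612 to 54445364 on chromosome 14.

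**Figure D2:**
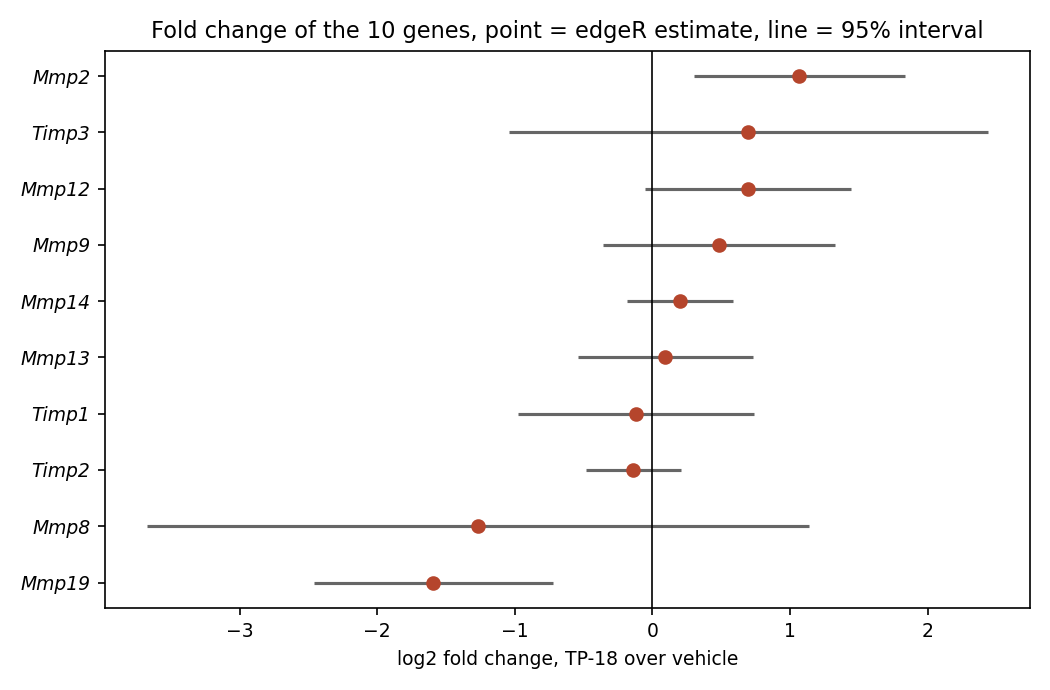
Log2 fold change of TP-18 over vehicle (horizontal axis) for each of the 10 genes, from the edgeR fit over all tested genes, with its 95% interval as a line. The intervals of Mmp2 (0.30 to 1.83) and Mmp19 (-2.46 to -0.72) lie to one side of 0, and these intervals are not adjusted for the number of genes tested.

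Among the inhibitors, Timp2 and Timp1 were the most abundant members per length. Timp2, which also takes part in the activation of pro-Mmp2 by the Mmp14 protein, had 572, 651 and 593 CPM in TP-18 libraries 1, 2 and 3, against 598, 630 and 774 CPM in vehicle libraries 1, 2 and 3. Its groups overlapped, and it was the steadiest member, with a pooled SD of log2 CPM within groups of 0.15. For this gene the log2 fold change was -0.14 ± 0.15 (SE), with a 95% interval of -0.49 to 0.21 (edgeR adjusted p = 0.665). With library totals as scaling it was 0.04. That scaling moves the median log2 fold change of all tested genes by 0.18, to 0.20.

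Timp1, a soluble inhibitor that cytokines induce, had 108, 67.2 and 159 CPM in TP-18 libraries 1, 2 and 3, against 149, 144 and 69.8 CPM in vehicle libraries 1, 2 and 3. Each group held both high and low libraries. The log2 fold change was -0.12 ± 0.37 (SE), with a 95% interval of -0.98 to 0.74 (edgeR adjusted p = 0.897), and it was 0.05 with library totals as scaling. Timp1 lies at 20870166 to 20874735 on chromosome X, within an intron of Syn1 with no shared exonic base.

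Timp3, the inhibitor that stays bound to the matrix and also blocks ADAM17, had 43.7, 57.1 and 15.1 CPM in TP-18 libraries 1, 2 and 3, against 5.04, 48.5 and 18.1 CPM in vehicle libraries 1, 2 and 3. Vehicle 1 was far below the others, and vehicle 2 lay among the high TP-18 libraries. The log2 fold change was 0.70 ± 0.75 (SE), with a 95% interval of -1.04 to 2.44 (edgeR adjusted p = 0.671). It was 0.19 without vehicle 1 and 1.72 without vehicle 2 (edgeR adjusted p = 0.887 and 0.353). The pooled SD within groups, 1.35, was larger than that of 98.5% of tested genes. The endothelial marker Plvap had 39.6, 36.6 and 18.5 CPM in TP-18 libraries and 5.04, 44.7 and 16.7 CPM in vehicle libraries, with its lowest value in vehicle 1 as well. Its profile was among the 3 closest to Timp3, so this likeness follows from how it was picked. The 8 endothelial markers, Plvap among them, summed to 185, 176 and 106 CPM in TP-18 libraries and 34.7, 186 and 63.5 CPM in vehicle libraries. All 8 had a positive log2 fold change and 0 passed with edgeR. DESeq2 called Kdr higher, against 4.03% of the genes it tested. The part of these markers in the Timp3 values was not tested. Timp3 lies within Syn3 on the opposite strand and shares 1733 of its 8144 exonic bases with it, where Syn3 averaged 1.04 CPM and Timp3 31.3 CPM. Syn3 had a log2 fold change of 2.14 (edgeR adjusted p = 0.177). Since the use of strand in counting is not given, reads from this shared stretch cannot be told apart either.

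Levels of different genes were compared in FPKM, which divides by gene length. Over the 6 libraries the mean FPKM was 175 for Timp2, 131 for Timp1, 94.4 for Mmp14 and 91.4 for Mmp19, and Mmp19, the lowest of these, was above 94.4% of tested genes. Mmp12 followed with 24.7, Mmp13 with 19.0, Mmp8 with 12.2, Mmp9 with 7.71, Mmp2 with 6.87 and Timp3 with 6.77. The ranges of every pair of neighbours in this order overlapped when taken over all 6 libraries. Within libraries, 1 of the 9 neighbouring pairs kept its order throughout: Mmp19 was above Mmp12 in 6 of 6. Mmp14 and Mmp19 together made up 65.3 to 68.0% of the summed FPKM of the 7 metalloproteinases in TP-18 libraries and 72.8 to 82.4% in vehicle libraries. Mmp19 gave 21.5, 26.8 and 14.6% of the sum in TP-18 libraries 1, 2 and 3, against 35.2, 53.1 and 52.1% in vehicle libraries 1, 2 and 3. Mmp14 gave 46.5, 38.8 and 50.7% in TP-18 libraries and 45.7, 19.6 and 30.3% in vehicle libraries. The leading transcript therefore differed: Mmp14 was above Mmp19 in 3 of 3 TP-18 libraries and in 1 of 3 vehicle libraries. The FPKM ratio of Mmp14 to Mmp19 was 2.16, 1.45 and 3.47 in TP-18 libraries 1, 2 and 3, against 1.30, 0.369 and 0.582 in vehicle libraries 1, 2 and 3. These ratios did not overlap, though TP-18 2 and vehicle 1 lay close together.

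Mmp12 came after Mmp14 and Mmp19 in each TP-18 library, but lay below Mmp13 or Mmp8 in each vehicle library. It gave 15.8, 11.1 and 14.0% of the sum in TP-18 libraries and 6.20, 7.65 and 4.51% in vehicle libraries. As a share its groups did not overlap. Mmp2 gave 2.49 to 5.58% in TP-18 libraries and 1.38 to 1.59% in vehicle libraries. Shares are bound to each other, so a smaller share of Mmp19 raises the others without any change of their own. The summed FPKM of the 7 metalloproteinases was 220, 255 and 234 in TP-18 libraries and 220, 362 and 247 in vehicle libraries. That of the 3 inhibitors was 305, 285 and 370 in TP-18 libraries and 322, 324 and 273 in vehicle libraries. Both sums overlapped between the groups. Inhibitor transcripts exceeded metalloproteinase transcripts 1.39-, 1.12- and 1.58-fold in TP-18 libraries 1, 2 and 3. In vehicle libraries 1, 2 and 3 the ratio was 1.46, 0.895 and 1.11. Timp1 and Timp2 made up 95.4 to 99.1% of the inhibitor sum in TP-18 libraries and 97.0 to 99.7% in vehicle libraries.

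**Figure D3:**
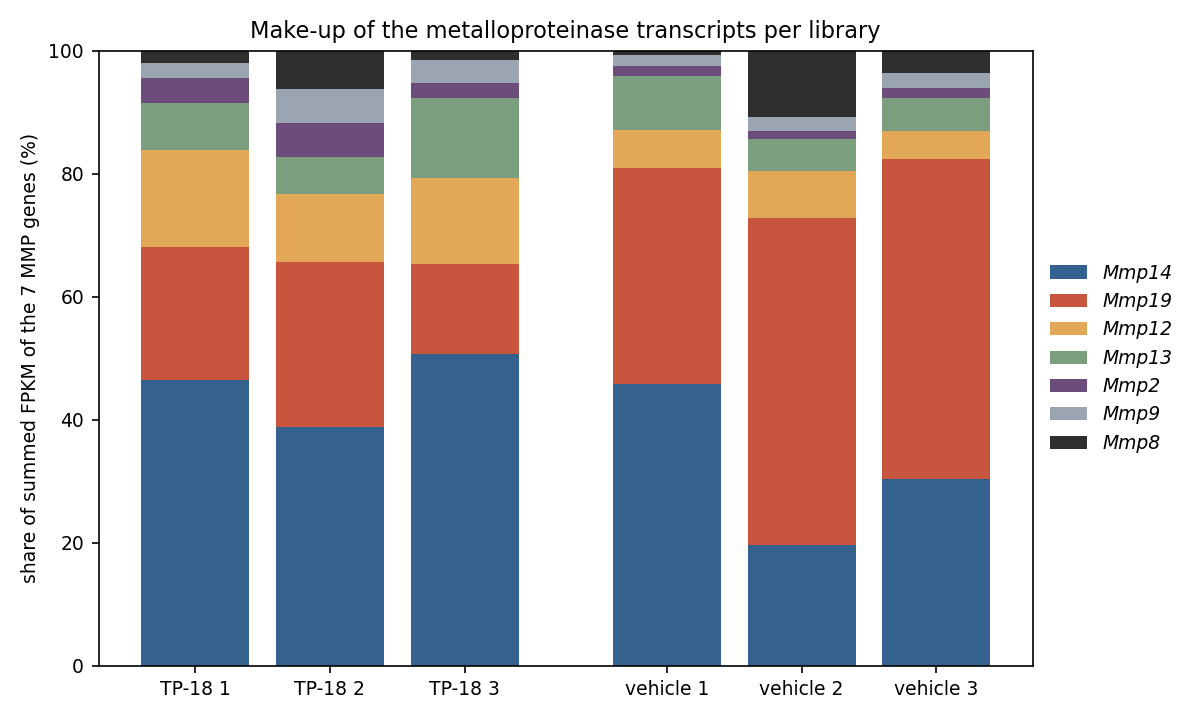
Share of each metalloproteinase gene in the summed FPKM of the 7 genes (vertical axis, percent), 1 bar per library, TP-18 libraries left and vehicle libraries right. Mmp19 takes 14.6 to 26.8% in TP-18 libraries and 35.2 to 53.1% in vehicle libraries, and Mmp12 takes 11.1 to 15.8% in TP-18 libraries and 4.51 to 7.65% in vehicle libraries.

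Profiles over the 6 libraries were compared by the root mean square difference of log2 CPM centred on each gene's mean, among tested genes with a mean of at least 10 CPM. Closest to Mmp19 was Thbd, which encodes thrombomodulin, at a distance of 0.16 log2 units, followed by Arg2 (0.31), an arginase, and Il6 (0.33), the cytokine. Thbd had 11.6, 14.3 and 7.64 CPM in TP-18 libraries and 21.4, 60.1 and 43.4 CPM in vehicle libraries, the same order of libraries as Mmp19. Closest to Mmp2 were Pdk1 (0.14), a kinase that restrains pyruvate dehydrogenase, Prx (0.19) and Zfp395 (0.21). Closest to Mmp8 were S100a8 (0.35), Hp (0.46), which encodes haptoglobin, and Il1r2 (0.46), the decoy receptor of interleukin-1. Closest to Timp3 were Inhbb (0.24), Adgrf5 (0.26) and the endothelial gene Plvap (0.27).

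Sparc (0.21) and Fbln5 (0.21), both matrix genes, and Usp18 (0.23) were closest to Mmp12. Unc13a (0.22), Ero1a (0.22) and Dtnb (0.23) were closest to Mmp9. Pla2g4a (0.11), Tmem97 (0.11) and Ptrh2 (0.12) were closest to Mmp13, and Bcat1 (0.13), Tm4sf1 (0.16) and Ercc1 (0.18) to Timp1. For Mmp14 (Vars2, Rcbtb2 and Tmem106a) and Timp2 (Srpk2, Sec24c and Gosr2) the distances were 0.02 to 0.04, small because these profiles are nearly flat. Among the 45 pairs of members the closest were Mmp13 and Timp1 (0.27), both highest in TP-18 3, and the farthest were Mmp8 and Timp1 (1.80). These names are a description of 6 libraries.

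**Figure D4:**
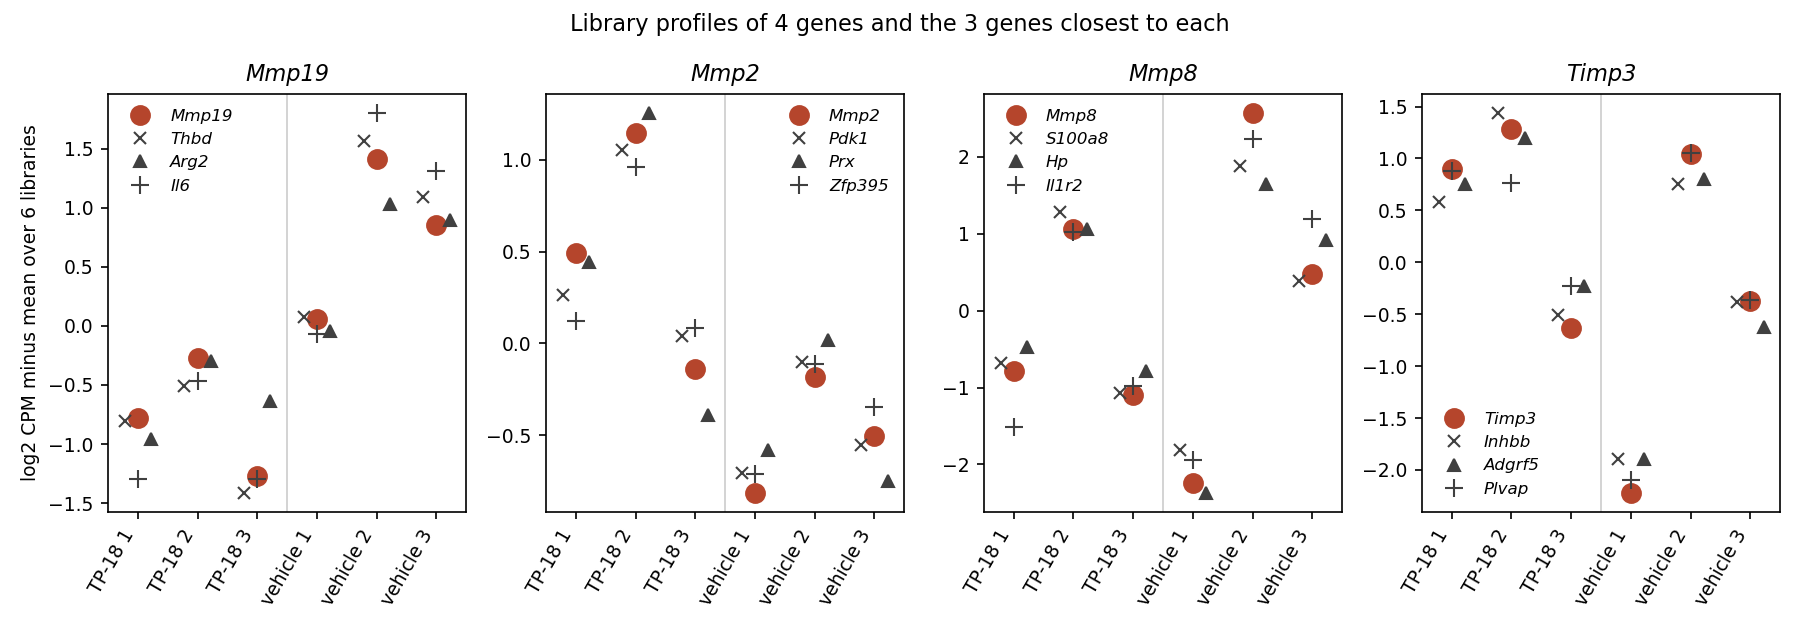
Log2 CPM minus the mean over the 6 libraries (vertical axis) for Mmp19, Mmp2, Mmp8 and Timp3 (filled circles) and the 3 genes closest to each (other symbols), with TP-18 libraries left of vehicle libraries. Mmp19 and Thbd are lower in every TP-18 library, while Mmp8 and Timp3 with their neighbours have their lowest value in vehicle 1.

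Of 17 other metalloproteinase and TIMP genes, 14 were in the tables, 8 had enough counts to be tested and 0 passed with edgeR, limma-voom or DESeq2, with 0 at an unadjusted p under 0.05. The most abundant was Mmp11, a stromelysin known from fibroblasts of tumours, at 15.01 ± 2.75 CPM in TP-18 libraries and 13.1 ± 0.555 CPM in vehicle libraries (SD, n = 3 each). Mmp25, a membrane-anchored protease of leukocytes, averaged 6.73 and 4.67 CPM in TP-18 and vehicle libraries, and Mmp28 averaged 2.84 and 2.20 CPM. Summed over the 14 genes the level was 33.1 to 41.9 CPM in TP-18 libraries and 30.1 to 44.9 CPM in vehicle libraries. The 10 members summed to 1471 to 1617 CPM in TP-18 libraries and 1566 to 2139 CPM in vehicle libraries, so they carried nearly all counts of the families.

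Genes that act around these proteases were read as lists, which were chosen with earlier results of these data known. Over all tested genes, 7.56% were higher and 8.7% lower at an unadjusted p under 0.05 with edgeR. DESeq2 called 4.03% of the genes it tested. Among 9 tested proteases that activate proenzymes, 0 passed with edgeR, 4 were higher and 1 lower (Furin) at an unadjusted p under 0.05. DESeq2 called Tpsb2 and Cma1 higher, which encode mast cell proteases. The 4 higher genes had low levels. Tpsb2, Cma1, Pcsk5 and Pcsk6 averaged 7.61, 3.49, 2.57 and 1.63 CPM in TP-18 libraries, against 1.25, 0.126, 0.644 and 0.704 CPM in vehicle libraries. Furin, which removes the propeptide of Mmp14, averaged 329 ± 47.1 CPM in TP-18 libraries and 572 ± 218 CPM in vehicle libraries (edgeR adjusted p = 0.230). Plau, the urokinase, averaged 382 ± 190 and 370 ± 153 CPM in TP-18 and vehicle libraries. Among genes that restrain or clear metalloproteinases, Lrp1, a receptor that takes up protease complexes, averaged 2291 ± 81.5 and 1974 ± 942 CPM in TP-18 and vehicle libraries, and Thbs1 averaged 706 ± 719 and 1959 ± 1778 CPM. Neither passed with edgeR (adjusted p = 0.792 and 0.468).

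Of 11 tested surface partners, 0 passed with edgeR and 3 were lower at an unadjusted p under 0.05, namely Cd44, Plaur and Cd63, which DESeq2 also called lower. Over all tested genes, 8.7% were lower and 7.56% higher at this edgeR p, and DESeq2 called 4.03% of the genes it tested. Cd44, the hyaluronan receptor that docks Mmp9, averaged 779.7 ± 183 CPM in TP-18 libraries and 1242 ± 64.4 CPM in vehicle libraries (edgeR adjusted p = 0.198), and Itgb1 averaged 819 ± 80.8 and 841 ± 26.4 CPM. Of 13 tested ADAM and ADAMTS proteases that TIMPs can inhibit, 0 passed with edgeR, 2 were higher at an unadjusted p under 0.05 and DESeq2 called Adamts2 higher. Adam8 and Adam9, the most abundant, had log2 fold changes of -0.32 and -0.14. Of 13 tested matrix substrates, 0 passed with edgeR, 6 were higher at an unadjusted p under 0.05 and DESeq2 called 4 higher (Col1a1, Col1a2, Col5a2 and Lama4). The list's median log2 fold change was 0.70, against 0.02 over all tested genes. Fn1, fibronectin, averaged 4020 ± 428 CPM in TP-18 libraries and 3441 ± 963 CPM in vehicle libraries, and Col1a2, a chain of collagen I, averaged 994 ± 111 and 590 ± 159 CPM. These collagen genes are also fibroblast markers.

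Of 16 transcription factors known to act on metalloproteinase promoters, Ets1 passed as lower with edgeR. At an unadjusted p under 0.05 with edgeR, 8 were lower and 0 higher, and DESeq2 called 6 lower (Fosl1, Jund, Ets1, Nfkb1, Rela and Cebpb). Over all tested genes, 0.0865% passed as lower with edgeR, 8.7% were lower and 7.56% higher at an unadjusted p under 0.05. DESeq2 called 4.03% of the genes it tested. This list, too, was chosen with earlier results of these data known. Ets1 fell to 90.9 ± 5.86 CPM in TP-18 libraries, against 193 ± 17.7 CPM in vehicle libraries (SD, n = 3 each), with an edgeR adjusted p of 0.0493. This call was close to the threshold and was lost in 10 of 15 alternatives: with any of the 6 libraries left out, with library totals, with both limma fits on FPKM and with a replicate block. Across the 15 its log2 fold change ran from -1.17 to -0.87 and its adjusted p from 5.08e-09 (DESeq2) to 0.238 (edgeR without TP-18 1). The list's median log2 fold change was -0.47 with TMM scaling and -0.29 with library totals. Fosb, a member of AP-1 and the most abundant of the list, averaged 2460 ± 640 CPM in TP-18 libraries and 2558 ± 73.8 CPM in vehicle libraries, and Jun averaged 1135 ± 188 and 1507 ± 241 CPM. Mmp13 and Mmp12, shown above because their promoters hold the AP-1 motif, had log2 fold changes of 0.09 and 0.69 in the same fit. Neither passed (edgeR adjusted p = 0.889 and 0.335). The window at the other Mmp12 start lacks the motif, and the part of these factors in the Mmp13 and Mmp12 values was not tested.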

How the data were processed

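Messenger RNA was measured in 6 libraries, 3 from TP-18 and 3 from vehicle mice, grouped by the treatment label. The authors deposited raw counts per gene and a second table of FPKM values. The submitters' processing notes name the tools HISAT2, HTSeq and fastp and the build GRCm38, and tool versions are not given in the sources used here. For the FPKM table, each deposited value equals count per gene length and library total in all 17191 genes, so it carries no scaling factor. Counts were tested with edgeR 4.0.16 (R 4.3.3) by the quasi-likelihood test, TP-18 against vehicle, after filterByExpr (minimum count 10, minimum total 15) and TMM scaling, with Benjamini-Hochberg adjustment over 12721 genes and a threshold of 0.05. The script was tested on simulated data. CPM values use TMM-scaled library sizes, and log2 profiles use a prior count of 2. Standard errors are the absolute log2 fold change over the square root of F.

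Libraries of a group differed by more than sampling noise, so each counted once. Positions and exon overlaps are from GENCODE M21 on GRCm38, promoters from RefSeq on GRCm38.p6. Alternatives were other scalings and filters, DESeq2 1.42.0, limma 3.58.1 (voom, and log2(FPKM + 1) or log2(FPKM + 0.1)), a replicate block, and each library left out. The members and gene lists were chosen with earlier results of these data known. Named were all members, the sort markers, list members past the threshold or else the 2 most abundant (4 for other family genes), and the 3 closest profiles per member; other genes were chosen after their values were seen. Figures used matplotlib 3.10.9. The counts for the list of genes that restrain or clear metalloproteinases are not reported here.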

Additional observations from a re-analysis of the deposited data

How the results depend on the processing

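Over 15 alternatives for each of the 10 genes, 136 of 150 values kept their direction and their side of the threshold, 12 changed direction, and 2 passed only under the alternative (DESeq2 for Mmp19 and Mmp2). Mmp2, Mmp9, Mmp12, Mmp14, Mmp19 and Timp3 kept their direction in all 15. With library totals, log2(FPKM + 1) and log2(FPKM + 0.1), the log2 fold change of Timp1 was 0.0534, 0.0518 and 0.0523 and that of Timp2 was 0.0396, 0.0436 and 0.0439. Timp1 was also 0.14 without TP-18 2, 0.04 without vehicle 1 and 0.01 without vehicle 2. Mmp13 was -0.28 without TP-18 3 and -0.06 without vehicle 3, and Mmp8 was 0.36 without vehicle 2. With each library left out in turn, Mmp8 ran from -2.27 to 0.36, Mmp13 from -0.28 to 0.28, Timp1 from -0.46 to 0.14, Mmp19 ran from -1.90 to -1.24 and Mmp2 from 0.69 to 1.33. Of all genes, edgeR called 14, DESeq2 505, the fit without a filter 27, library totals 4 and both FPKM fits 2, and 0 to 8 were called with a library left out (0 without any TP-18 library or vehicle 3, 8 without vehicle 1 and 1 without vehicle 2), in fits with fewer samples. In these fits 1169 to 2488 genes had an unadjusted p under 0.05. The cause of the other differences was not tested. A replicate block called 3 genes. Same-numbered deviations correlated at 0.16, 0.39 and -0.15 for replicates 1, 2 and 3. TP-18 1 correlated best with vehicle 1 and TP-18 2 with vehicle 2, while TP-18 3 correlated best with vehicle 1 (0.50). With 3 libraries a group these correlations are bound to each other, so they cannot decide whether the shared numbers pair the libraries. With the block Mmp19 was -1.55 and Mmp2 1.00. With 3 libraries a group, the wide intervals of Mmp8, Timp3 and Timp1 limit what could be seen.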
